A study of Mus musculus with 60 samples.

Results

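The livers of mice exposed to 28Si ions were compared with those of non-irradiated mice at 9 months, using the 3 libraries of each group out of 60 libraries in the whole series. The 28Si group held male C3H/HeNCrl mice, 8 to 10 weeks old at the start, that received 0.2 Gy of 28Si to the whole body. The control group held male mice of the same strain and age range that were not irradiated. RNA came from the left liver lobe of each mouse, was depleted of ribosomal RNA and was sequenced in pairs of 50-base reads. The mice were assigned to the groups by their labels, and separate mice and separate controls were used at every time point of the series. The same 3 controls also serve the 56Fe and 16O groups of that time. No label ties a replicate number of one group to a mouse of the other.

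28Si is a heavy, high-energy ion of galactic cosmic radiation, and the study asked how such ions change the liver transcriptome over time in a strain prone to liver tumours. Most liver RNA comes from hepatocytes, which make plasma proteins, burn and store fat and break down foreign compounds. Beside messenger RNA, cells hold many short structural RNAs. Mitochondrial transfer RNAs carry amino acids to the ribosomes inside mitochondria and are cut out of long transcripts of the mitochondrial genome. RNA polymerase III makes others, such as the Y RNAs, the RNA parts of RNase P and RNase MRP, and 7SK RNA, which restrains the elongation factor P-TEFb.

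The 6 libraries held 12690520 to 23619302 mapped read pairs, as recovered from the size of the smallest steps in the deposited values. Between 74.2% and 86.2% of those pairs fell in annotated transcripts. The hepatocyte genes albumin (Alb, 12451 to 35549 RPKM over the 6 mice) and transthyretin (Ttr, 2237 to 4963 RPKM) were among the genes with high values in every mouse, whereas the T cell gene Cd3e stayed at 0.0217 to 0.402 RPKM. RPKM is a read number scaled to transcript length and to the mapped total of the library. The library of 28Si replicate 2 stood apart: its median Spearman correlation with the others was 0.959, against 0.975 to 0.982 for the other 5 libraries. It held the highest value of the 6 libraries in 26.3% of genes and the lowest in 26.8%, against 12.2% to 16.7% and 12.4% to 16.3% for each of the others. Values without that mouse are given beside the gene lists and calls that change with it.

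Few genes separated the groups. Of 11301 genes tested with limma on log2(scaled RPKM + 0.1), 13 passed both thresholds (0.05 for the Benjamini-Hochberg adjusted p and 2 for the fold), which is 0.115% of the genes tested, with 12 higher and 1 lower in 28Si liver. At the adjusted p alone the number was 14 (0.124%), with 13 higher (0.115%) and 1 lower (0.00885%), and 1313 genes (11.6%) had an unadjusted p under 0.05. Of the 14 genes, 11 are noncoding RNAs of 67 to 319 bases, namely 4 mitochondrial transfer RNAs, 3 nuclear RNAs made by RNA polymerase III (Rny1, Rpph1 and Rmrp_1), the 7SK-like gene Gm26035, the small nuclear RNA genes Gm25541 and Gm23287, and Gm47299. The other 3 are the long noncoding RNA Gm47162 and the protein-coding genes Hspa8, which rose, and Micos10, which fell. Gm23287 and Gm47299 average under 1 RPKM over the 6 mice and were named after their values were seen. These 2 genes and the 4 mitochondrial transfer RNAs were at 0 in all controls and met the filter only through the 28Si mice. Their part in these counts, and in the balance of higher and lower genes, is a description. No gene passed in limma-voom on reads estimated from the RPKM (0 of 12410 genes, with 1357 at an unadjusted p under 0.05), and none when protein-coding genes were tested on their own (0 of 10820, with 1255 unadjusted).

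**Figure D1:**
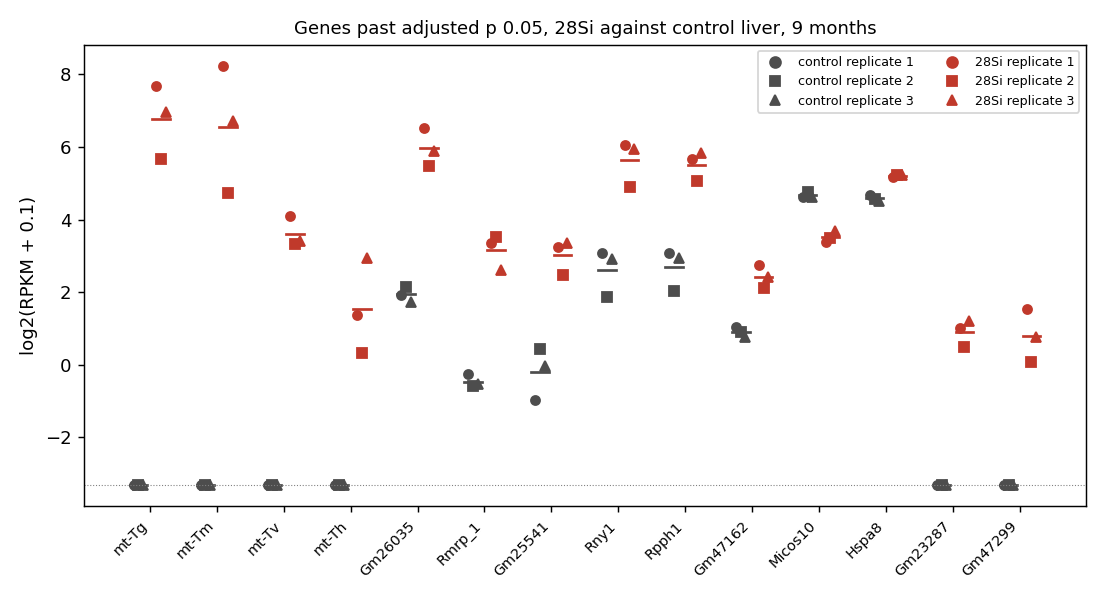
RPKM of the 14 genes with an adjusted p of at most 0.05, on the scale log2(RPKM + 0.1), in each control (grey) and 28Si (red) mouse at 9 months, with bars at the group means of these log values and a dotted line at an RPKM of 0. In every gene the 3 red points lie on one side of the 3 grey ones, above them in 13 genes and below them in Micos10.

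The mitochondrial transfer RNAs that rose were those for glycine (mt-Tg), methionine (mt-Tm), valine (mt-Tv) and histidine (mt-Th). They are shown because they carry the highest fitted differences of the comparison and because their length, under 70 bases, bears on how they were measured. Sequences are from GENCODE M21 on GRCm38, all on the plus strand of the mitochondrial genome, in DNA letters with the anticodon in capitals. mt-Tg lies at chrM:9391-9458, mt-Tm at chrM:3845-3913, mt-Tv at chrM:1025-1093 and mt-Th at chrM:11546-11612. A search of the annotated transcripts with blastn found no other gene similar to any of them.
mt-Tg: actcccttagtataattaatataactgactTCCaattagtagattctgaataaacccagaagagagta
mt-Tm: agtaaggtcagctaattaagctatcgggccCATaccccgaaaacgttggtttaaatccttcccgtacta
mt-Tv: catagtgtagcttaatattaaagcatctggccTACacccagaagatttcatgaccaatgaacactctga
mt-Th: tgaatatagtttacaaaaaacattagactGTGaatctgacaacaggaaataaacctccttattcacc

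mt-Tg was listed at 0 in all 3 controls and had 205, 50.4 and 126 RPKM in the 3 28Si mice (adjusted p = 1.43e-04, limma). The groups did not overlap, as was so for 19.5% of all genes tested on the deposited scale (3.50% with 28Si higher and 16.0% with 28Si lower). mt-Tm was listed at 0 in the controls and had 303, 26.5 and 104 RPKM in 28Si liver (adjusted p = 0.0031). The 28Si mice were widely spread, with replicate 2 lowest for both genes. mt-Tv was at 0 in the controls and at 16.97, 9.94 and 10.4 RPKM in the 28Si mice (adjusted p = 1.13e-04). mt-Th was at 0 in the controls and at 2.496, 1.14 and 7.58 RPKM in 28Si liver (adjusted p = 0.0391), which is 1 to 12 reads per library. The reads behind the others were 45 to 250 for mt-Tg, 24 to 375 for mt-Tm and 9 to 21 for mt-Tv. No fold is given against groups listed at 0, and the fitted log2 differences, 10.15 for mt-Tg, 9.94 for mt-Tm, 6.99 for mt-Tv and 4.92 for mt-Th, depend on the 0.1 added before taking logs. mt-Tg, mt-Tm and mt-Tv stayed past the threshold without each control in turn (adjusted p up to 0.0041, 0.0404 and 0.0023), and mt-Th did not without any of the 3 controls (0.152 to 0.21). With every control at 0, leaving 1 out is no check of the difference. The filter was met only through the 28Si mice, so the p-values of these genes are descriptions. Without a 28Si mouse these genes fell under the filter on low values and could not be tested.

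All 22 mitochondrial transfer RNA genes are in the table, and 6 passed the filter of 0.5 RPKM in 3 libraries, of which 4 did so only through the 28Si mice. Over the 22 genes, 19 were listed at 0 in every control and 11 had a value above 0 in at least 1 28Si mouse, but 4 had one in all 3 28Si mice. The reads were therefore concentrated in few of the genes. mt-Tl1, for leucine, had 0.687, 0 and 0 RPKM in the controls and 5.20, 0 and 2.82 RPKM in 28Si liver, and mt-Tq, for glutamine, had 0, 0 and 0.778 against 0.785, 0 and 2.39 RPKM. Both overlapped between the groups and neither passed. Summed over all 22 genes, mitochondrial transfer RNA took 0 to 0.111 RPM (reads scaled to the mapped total) in the controls and 6.17 to 36.8 in 28Si liver.

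Some nuclear short RNAs also rose. Gm26035 (chrX:152923453-152923760, minus strand), annotated as a miscellaneous RNA, aligned to 7SK RNA (Rn7sk) over 229 of its 308 bases at 96.1% identity. It had 3.68, 4.35 and 3.23 RPKM in the controls and 91.8, 44.05 and 59.2 RPKM in 28Si liver, a 17.3-fold ratio of means (log2 difference 4.14 ± 0.28 SE, adjusted p = 0.00187, n = 3 and 3). Rn7sk itself, one of the most abundant RNAs here, had 10357, 8916 and 9149 RPKM in the controls and 12189, 11102 and 9458 RPKM in 28Si liver, with overlapping groups (log2 difference 0.32, adjusted p = 0.787). Gm26035 passed in all 6 fits that left out a mouse (adjusted p up to 0.0313), and reads shared between it and the far more abundant Rn7sk cannot be told apart in these values.

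Rny1 (chr6:47788069-47788180, minus strand) encodes a Y RNA, a small partner of the Ro60 protein. It is printed as a second short RNA that rose, here of nuclear origin.
Rny1: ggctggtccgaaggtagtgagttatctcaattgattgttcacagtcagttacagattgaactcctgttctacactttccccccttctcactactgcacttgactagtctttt
Rny1 had 8.28, 3.52 and 7.40 RPKM in the controls and 66.7, 29.9 and 61.6 RPKM in 28Si liver, 8.24 times the control mean (log2 difference 3.15 ± 0.39 SE, adjusted p = 0.0404). The lowest 28Si mouse was well above the highest control. The call was lost in 5 of the 6 fits that left out a mouse (adjusted p up to 0.239) and held without 28Si replicate 2 (0.00883). A pair of other annotated genes is near-identical to Rny1, so its level is uncertain where reads matched both. The sister gene Rny3, named after its values were seen, had 28.8, 14.7 and 12.5 RPKM against 324, 61.3 and 198 RPKM and did not pass (log2 difference 3.29, adjusted p = 0.146).

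The RNA parts of 2 related RNA-cutting enzymes also rose. Rmrp_1 (chr4:43492788-43493058, minus strand) is the RNA of RNase MRP, which cuts ribosomal RNA precursors. It had 0.734, 0.561 and 0.59 RPKM in the controls and 10.1, 11.4 and 6.04 RPKM in 28Si liver (14.6-fold, log2 difference 3.74 ± 0.27 SE, adjusted p = 0.00264), from 2 to 4 reads per control and 40 to 51 per 28Si library. The call was lost without 28Si replicate 1 (adjusted p = 0.0637). The name joins a pair of annotated transcripts that share 271 bases, and Ccdc107 lies on the other strand. Rpph1 (chr14:50807449-50807767, minus strand) is the RNA of RNase P, which trims transfer RNA precursors. It had 8.40, 3.95 and 7.62 RPKM in the controls and 50.3, 33.2 and 57.1 RPKM in 28Si liver (7.04-fold, log2 difference 2.95 ± 0.30 SE, adjusted p = 0.0177). In both genes every 28Si mouse was above every control. The Rpph1 call held without 28Si replicate 2 (adjusted p = 0.00883) or control replicate 2 and was lost without any of the other 4 mice (adjusted p up to 0.229). An exon of Ccnb1ip1 on the same strand matches 233 of the 319 bases of Rpph1, so these reads cannot be told apart between the genes.

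Of the small nuclear RNA genes, which belong to the splicing machinery, Gm25541 (chr2:27539805-27539930, minus strand) had 0.409, 1.25 and 0.877 RPKM in the controls and 9.29, 5.44 and 10.1 RPKM in 28Si liver (9.78-fold, log2 difference 3.32 ± 0.38 SE, adjusted p = 0.0333). Its call was lost without control replicate 3, 28Si replicate 1 or 28Si replicate 3 (adjusted p up to 0.239). Gm23287 (chr4:117210844-117210959, plus strand), whose closest annotated relative is the U5 gene Rnu5g at 94% identity, was at 0 in the controls and at 1.92, 1.31 and 2.19 RPKM in 28Si liver (adjusted p = 0.0031), on 2 to 6 reads, and passed without each control in turn (up to 0.0313). Gm47299 (chr12:69361179-69361258, minus strand) is annotated as a microRNA but overlaps the 7SL RNA gene Rn7s2 on the same strand and matches it over 77 of its 80 bases. It was at 0 in the controls and at 2.79, 0.953 and 1.59 RPKM in 28Si liver (adjusted p = 0.022), on 1 to 4 reads, and its call was lost without any control (0.107 to 0.146). Near-identical copies were found for all 3, with 6 other genes for Gm25541 and 4 each for Gm23287 and Gm47299, so the split of reads among them is uncertain. Gm23287 and Gm47299 met the filter only through the 28Si mice, so their p-values are descriptions. With every control at 0 for both genes, leaving 1 control out is no check of the difference.

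Summed over every annotated gene of a class, with no filter, small nuclear RNA took 81.4 to 196 RPM in the controls and 591 to 703 in 28Si liver. Small nucleolar RNA, which guides the chemical modification of other RNAs, took 2.93 to 5.10 and 15.6 to 77.3 RPM, and the ribozyme class 6.62 to 15.1 and 29.8 to 44.1. These classes did not overlap between the groups. Small Cajal body RNA went the other way, at 38.3 to 41.9 in the controls and 27.5 to 33.4 in 28Si liver, and the miscellaneous RNAs, dominated by Rn7sk, overlapped at 2973 to 3468 and 3236 to 4176 RPM. Among nucleolar RNAs chosen after their values were seen, Snord13 had 23.8, 21.97 and 15.9 RPKM in the controls and 401, 66.7 and 321 RPKM in 28Si liver (log2 difference 3.45, adjusted p = 0.14). Snord104 had 19.1, 9.01 and 2.37 against 411, 80.6 and 232 RPKM (log2 difference 4.83, adjusted p = 0.113). The groups were apart in both genes, but the 28Si mice varied several-fold among themselves and neither gene passed. The small nuclear RNA gene Gm24265, likewise chosen after its values were seen, had 656, 302 and 538 RPKM against 2354, 2133 and 2039 RPKM and missed the threshold narrowly (log2 difference 2.32, adjusted p = 0.0502).

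The difference moved with transcript length. Among genes with 1 annotated transcript, those under 100 bases took 0.276 to 1.39 RPM in the controls and 12.1 to 66.1 in 28Si liver, and those of at least 100 and under 200 bases took 87.5 to 206 and 613 to 796. In the next class, which starts at 200 bases, the ranges were 3722 to 4181 and 3743 to 4525 and overlapped. The class after that was lower in 28Si liver without overlap, at 15869 to 18558 RPM in the controls and 14319.5 to 15286 in 28Si liver. The following class was also lower without overlap, at 35654.5 to 42666 and 23225.5 to 32775 RPM. In the class of the longest transcripts the ranges overlapped, at 35797 to 40589 and 37875 to 44813 RPM. Of 8 tested genes under 100 bases all were higher in 28Si liver (52.2% of all genes tested were), with a median log2 difference of 4.87, but 5 of them passed the filter only through the 28Si mice. In the class from 100 bases, 13 genes reached the filter level in all 3 controls, and 9 of these were higher in 28Si liver, with a median log2 difference of 1.63. From 200 bases upward the medians of the tested genes lay between -0.06 and 0.06. The part of transcript length in the results on single short genes was not tested.

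**Figure D2:**
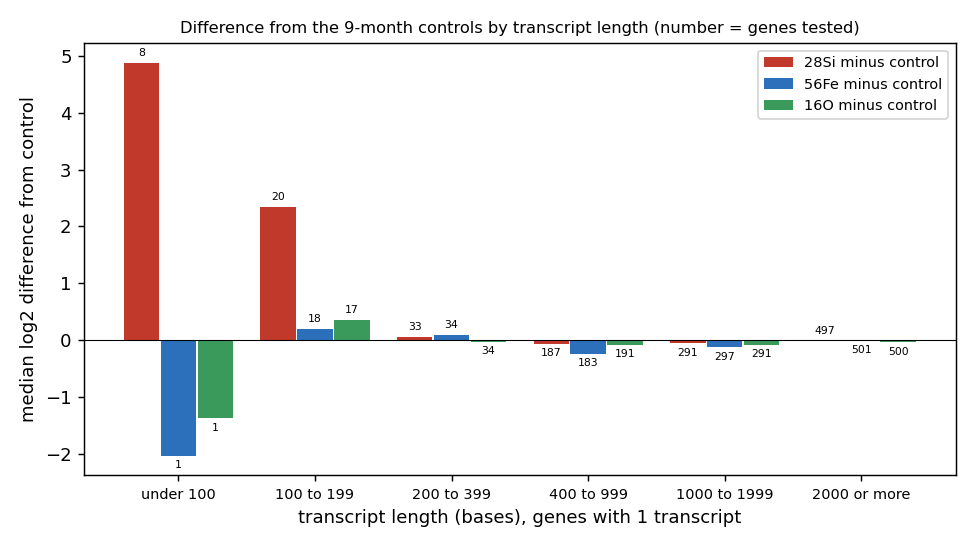
Median log2 difference from the 9-month controls for genes with 1 annotated transcript, by transcript length in bases, for 28Si (red), 56Fe (blue) and 16O (green), with the number of genes tested at each bar. The 28Si bars stand at 4.87 under 100 bases and 2.35 in the class from 100 bases and near 0 from 200 bases, but 5 of the 8 genes in the first bar passed the filter only through the 28Si mice, and over the 13 genes of the second class that reached it in all controls the median was 1.63. The 3 comparisons share their controls, and 1 gene under 100 bases passed the filter for 56Fe and 16O.

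Higher short RNA in 28Si liver was not limited to 9 months. In 28Si mice of the other 4 times, Gm26035 had 32.4 to 72.5 RPKM (median 45.3, n = 12), above all 12 controls of those times at 1.72 to 22.5 RPKM. mt-Tg had a median of 37.1 RPKM in those 28Si mice (0.618 to 160) and of 4.67 in the controls (0 to 24.9), and Snord13 had 137 (56.5 to 331) against 29.8 (10.2 to 124). These ranges overlap for mt-Tg and Snord13. Within the times, mt-Tg had group means of 62.2, 76.8, 36.4 and 9.96 RPKM at 1, 2, 4 and 12 months in 28Si liver and 18.5, 10.96, 1.25 and 2.72 RPKM in the controls. By fits of each time on its own 6 libraries, 28Si minus control at 4 months passed for mt-Tg (log2 difference 4.96, adjusted p = 1.82e-04), mt-Tm (8.87, 2.01e-07), Gm26035 (3.92, 0.00883), Rny1 (2.46, 6.03e-04) and Rmrp_1 (2.33, 0.0194). None of these 5 genes passed at 1, 2 or 12 months, where their adjusted p was 0.0527 to 0.967, and mt-Tm fell under the filter at 12 months. Other short RNAs did pass then, namely Gm25541 at 12 months (4.22, adjusted p = 0.0442) and mt-Tl1 at 2 months (4.62, adjusted p = 0.00162). All controls were at 0 for mt-Tm at 4 months and for Gm25541 at 12 months. There both genes met the filter only through the 28Si mice, so those results are descriptions. mt-Tl1 was at 0 in 10 of the 12 controls of the other times and at most 2.80 RPKM in the 28Si mice of those times. Its result at 2 months rests on the 28Si mice and is a description too. High Gm26035 was seen outside 28Si liver too, with a mean of 60.03 RPKM in 16O liver at 12 months.

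**Figure D3:**
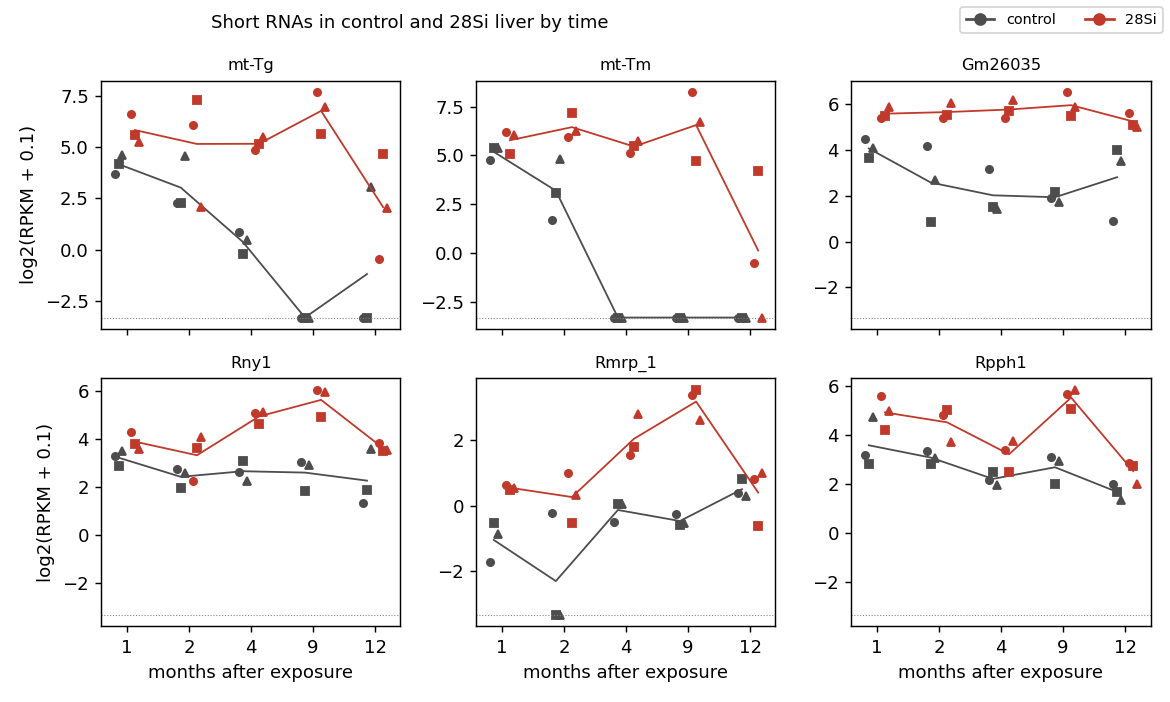
RPKM of 6 short RNAs on the scale log2(RPKM + 0.1) in control (grey) and 28Si (red) mice at 1, 2, 4, 9 and 12 months, with lines through the group means of these log values and a dotted line at an RPKM of 0. The Gm26035 points of 28Si mice lie above those of the controls at every time, while mt-Tm in the controls goes from 27.4 to 41.7 RPKM at 1 month to 0 at 4, 9 and 12 months.

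Longer genes that passed were few. Micos10 (chr4:139101814-139131113, minus strand), annotated in M21 as Minos1, encodes a subunit of the complex that shapes the folds of the inner mitochondrial membrane. It had 24.4, 26.9 and 24.7 RPKM in the controls and 10.4, 11.2 and 12.7 RPKM in 28Si liver and fell by 1.02 ± 0.10 (SE) on the log2 scale (adjusted p = 0.0112). The spread within each group was small beside the gap between them. The controls of the other times had 8.97 to 27.6 RPKM, so that the 28Si values at 9 months lie inside the range of controls of other ages. The call held without 28Si replicate 2 (adjusted p = 0.0196) and was lost without any other mouse (up to 0.188).

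Hspa8 (chr9:40800984-40810087, plus strand) encodes HSC70, the constitutive heat shock protein that folds new proteins and strips clathrin from vesicles. It had 25.4, 23.7 and 22.6 RPKM in the controls and 36.1, 37.3 and 37.4 RPKM in 28Si liver (log2 difference 0.75 ± 0.09 SE, adjusted p = 0.0404), a 1.55-fold ratio of means that is under the fold threshold. All 12 28Si mice of the other times had less, at 6.30 to 27.7 RPKM, as did the 12 controls of those times at 6.86 to 23.2 RPKM. The call was lost in each of the 6 fits that left out a mouse (adjusted p of 0.0734 to 0.305). The small nucleolar RNA genes Snord14c, Snord14d and Snord14e lie within it. In 16O liver of the other times Hspa8 reached 51.3 RPKM. Gm47162 (chr9:123307084-123307983, plus strand), a long intergenic noncoding RNA opposite the pseudogene Scp2-ps2, had 1.96, 1.76 and 1.61 RPKM in the controls and 6.61, 4.26 and 5.21 RPKM in 28Si liver (3.02-fold, log2 difference 1.64 ± 0.20 SE, adjusted p = 0.0404). Its call held without 28Si replicate 2 (0.0196) and was lost without any other mouse (up to 0.216).

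In 55 lists of genes for liver pathways and cell types, 54 had no member past the adjusted p in limma, and the list of heat shock chaperones had Hspa8 alone among its 20 tested genes. Limma-voom called no member either. The lists are described below by counts at an unadjusted p under 0.05, which 5.54% of all genes tested reached on the higher side and 6.08% on the lower side, and by their median log2 difference, which was 0.01 over all genes tested. Counts of higher or lower means in a list refer to means of the scaled log2 values, not to mean RPKM.

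Genes of the mitochondrial genome other than transfer RNAs were lower in 28Si liver by mean in 15 of 15, with a median log2 difference of -0.75, and 10 reached an unadjusted p under 0.05. The 6 tested transfer RNAs of that genome went the other way, 4 of them tested only through the 28Si mice. The large ribosomal RNA mt-Rnr2 had 2451, 4612 and 2350 RPKM in the controls and 915, 456 and 825 RPKM in 28Si liver (log2 difference -1.97, adjusted p = 0.188). mt-Atp6, of ATP synthase, had 1435, 1636 and 1711 RPKM in the controls and 581, 628 and 1122 RPKM in 28Si liver. Neither gene's groups overlapped. The list's sum was 22854 to 27429 RPKM in the controls and 9888 to 17258 RPKM in 28Si liver. Nuclear genes of oxidative phosphorylation had lower means in 67 of 74, a median of -0.21, and 18 lower at the unadjusted p against 0 higher. 28Si replicate 2 held the lowest value of the 6 libraries in 14 of the 15 mitochondrial and 68 of the 74 nuclear genes, and without it the medians were -0.54 and -0.08. In whole tissue, fewer cells of a type and less RNA per cell cannot be told apart.

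Targets of PPAR-alpha, the receptor that turns on fat burning, were lower by mean in 36 of 41, with a median log2 difference of -0.43 (-0.31 without 28Si replicate 2). At the unadjusted p 15 were lower and 0 higher. Cd36, a fatty acid carrier, had 43.1, 64.2 and 64.8 RPKM in the controls and 7.68, 15.2 and 25.1 RPKM in 28Si liver (log2 difference -1.85 ± 0.36 SE, adjusted p = 0.188). The thioesterase Acot3 had 3.48, 5.77 and 10.5 against 0.814, 0.433 and 1.64 RPKM (-2.57, adjusted p = 0.188), and Acot2 had 4.55, 4.13 and 5.96 against 2.03, 1.01 and 1.74 RPKM (-1.48, adjusted p = 0.188). The 3 genes did not overlap between groups and did not pass. In limma against the same controls, Cd36, Acot3 and Acot2 did pass in 56Fe liver (log2 difference -3.08, -3.86 and -2.06, adjusted p = 0.0202, 0.0123 and 0.0265). They also passed in 16O liver (-3.82, -3.31 and -1.61, adjusted p = 8.67e-04, 0.00839 and 0.00694). Cd36 had a median of 3.98 RPKM in the 12 controls of the other times, with a highest value of 19.5, and of 2.86 RPKM in the 12 28Si mice of those times, with a highest value of 44.5. For Cd36 all controls of 9 months were thus above the controls of the other times, whereas for Acot3 they overlapped those controls, which reached 6.88 RPKM. For Acot2 the controls of 9 months, at 4.13 to 5.96 RPKM, were also above those of the other times, at 1.00 to 3.55 RPKM. The Acot2 values of 28Si mice at 9 months, 1.01 to 2.03 RPKM, lay inside that lower range.

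Genes of fat synthesis had lower means in 22 of 28, a median of -0.36 (-0.14 without 28Si replicate 2) and 4 lower at the unadjusted p. Mogat1, which makes diacylglycerol, had 1.05, 1.35 and 0.765 RPKM in the controls and 0, 0 and 0.18 RPKM in 28Si liver (log2 difference -2.96, adjusted p = 0.116). In the 12 controls of the other times it had at most 0.244 RPKM. The groups were apart, with the controls of 9 months high. Mogat1 passed in limma against these controls in 56Fe liver (log2 difference -2.26, adjusted p = 0.0318) and not in 16O liver (-2.41, adjusted p = 0.0656). Glutathione transferases, which conjugate reactive compounds, had lower means in 19 of 22 and a median of -0.47, which was -0.10 without 28Si replicate 2. That mouse held the lowest value in 19 of the 22, for instance 3.72 RPKM of Gstm3 against 12.6 and 15.9 in the other 28Si mice and 24.5 to 33.5 in the controls. NRF2 antioxidant genes had lower means in 25 of 30 and a median of -0.33 (-0.18 without it), and the Cyp2 and Cyp3a genes in 29 of 34 with -0.30 (-0.15 without it). The same mouse was lowest in 20 of the 30 and 24 of the 34. Por, the electron donor of these enzymes, was the reverse, with 62.1, 48.9 and 49.9 RPKM in the controls and 70.4, 85.05 and 84.9 RPKM in 28Si liver (log2 difference 0.70, adjusted p = 0.113). The 12 controls of the other times had 70.6 to 136 RPKM, above the controls of 9 months. Por passed in limma against the controls of 9 months in 56Fe liver (log2 difference 0.998, adjusted p = 0.0279) and not in 16O liver (0.571, adjusted p = 0.0635).

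The acute phase response, by which the liver makes defence proteins on inflammatory signals, was seen mainly in 1 mouse. Positive acute phase genes had higher means in 36 of 38 and a median log2 difference of 0.75, which was 0.17 without 28Si replicate 2. That mouse held the highest value in 34 of the 38. Serum amyloid Saa1 had 60.9, 30.9 and 76.5 RPKM in the controls and 93.9, 9834 and 124 RPKM in 28Si liver (adjusted p = 0.463), and Saa2 had 24.8, 9.43 and 18.6 against 26.5, 12819 and 52.9 RPKM (adjusted p = 0.474). Lipocalin Lcn2 had 2.96, 2.47 and 5.03 against 1.502, 231 and 2.91 RPKM (adjusted p = 0.696). Outside replicate 2, Saa1 and Saa2 were above the controls in both other 28Si mice and Lcn2 was not.

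Markers of Kupffer cells, the resident macrophages of the liver, moved with the same library. Of the 17 markers 16 were tested, all 16 had a fitted log2 difference above 0, and 0 reached an unadjusted p under 0.05. Their sum was 150 to 260 RPKM in the controls and 146 to 487 in 28Si liver, with replicate 2 highest in 15 of the 16 and a median of 0.30 that was -0.23 without it. Adgre1 (F4/80) had 6.29, 3.89 and 3.74 RPKM in the controls and 3.06, 14.4 and 3.01 RPKM in 28Si liver. Of 12 neutrophil markers 2 were tested, and their list's sum was 2.60 to 4.38 RPKM in the controls and 2.98 to 32.3 RPKM in 28Si liver. S100a9 had 1.61, 1.54 and 1.40 against 1.198, 15.3 and 1.41 RPKM. None of these markers was at 0 in all mice, and their part in the acute phase values was not tested.

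**Figure D4:**
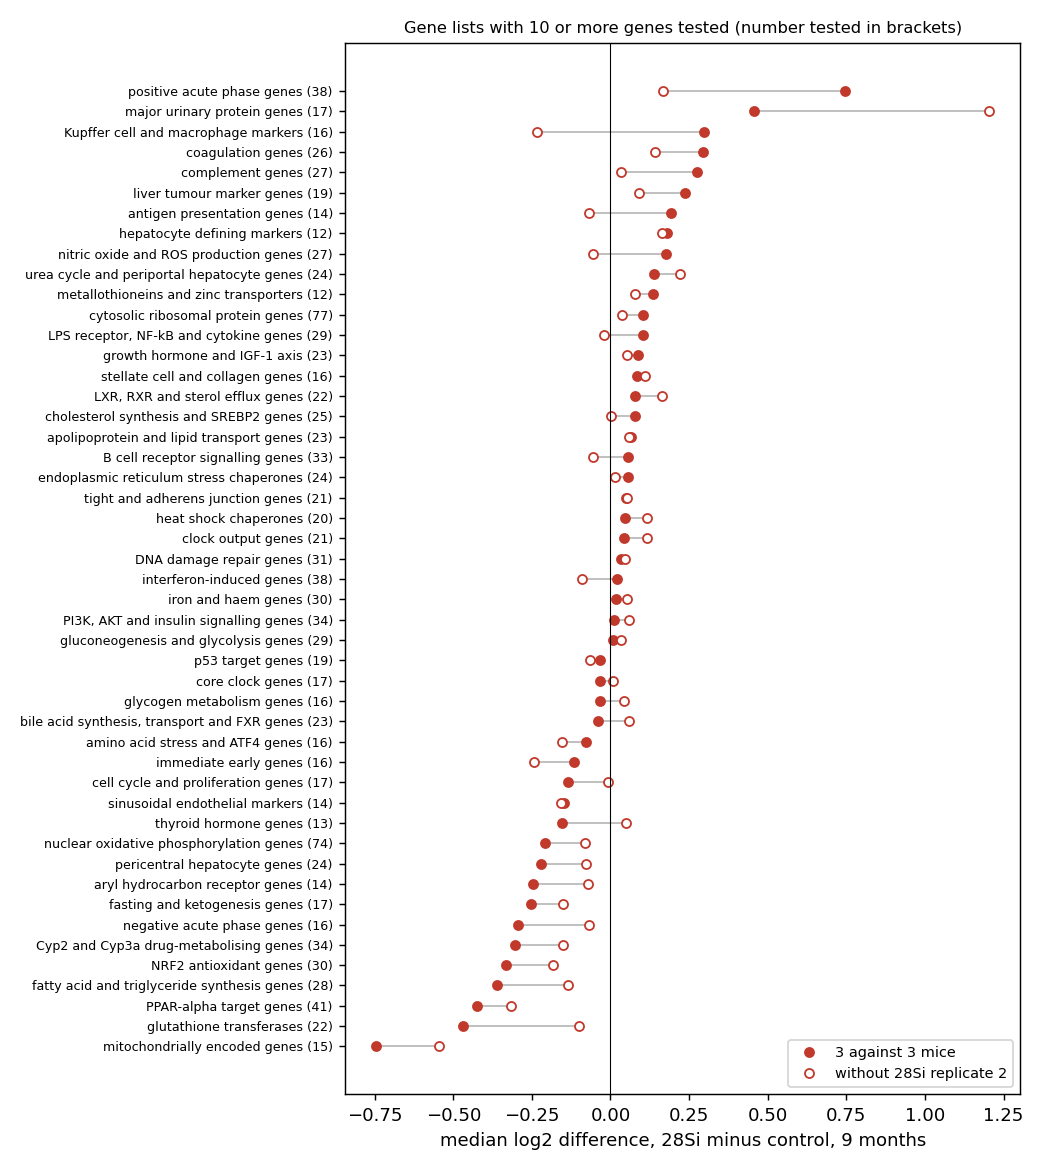
Median log2 difference, 28Si minus control at 9 months, over the tested genes of each list with at least 10 genes tested, for all 6 mice (filled) and without 28Si replicate 2 (open). The open point lies on the other side of 0 for 10 of the 48 lists, among them the Kupffer cell markers at 0.30 and -0.23, while the mitochondrially encoded genes other than transfer RNAs stay lowest at -0.75 and -0.54.

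Lists tied to radiation, tumours and signalling had medians between -0.25 and 0.24. p53 targets had a median of -0.03 over 19 genes, with 4 lower at the unadjusted p, among them Ccng1 with 17.5, 17.03 and 14.8 RPKM in the controls and 10.3, 11.5 and 13.2 RPKM in 28Si liver. DNA repair genes had a median of 0.03 over 31, with 2 higher and 1 lower, and cell cycle genes -0.13 over 17 (-0.0064 without 28Si replicate 2), with 1 lower. Liver tumour markers had a median of 0.24 over 19 (0.09 without 28Si replicate 2), with 3 higher, led by Tff3 at 6.27, 1.44 and 2.24 against 14.6, 80.7 and 6.44 RPKM. LXR and RXR genes, which govern sterol efflux, had a median of 0.08 over 22, with 4 higher and 3 lower. B cell receptor signalling genes had 0.06 over 33 (-0.06 without 28Si replicate 2), with 5 higher and 3 lower, and PI3K and AKT genes 0.01 over 34, with 1 each way. Aryl hydrocarbon receptor genes had -0.25 over 14, with 2 lower, and -0.07 without 28Si replicate 2. Cdh1 (E-cadherin), which joins hepatocytes, had 1.75, 1.42 and 1.22 RPKM in the controls and 4.90, 4.63 and 3.31 RPKM in 28Si liver (log2 difference 1.59, adjusted p = 0.0674). The controls of the other times had 3.75 to 8.71 RPKM of Cdh1, so that its low side was the control group of 9 months. Against the same controls Cdh1 also passed in 56Fe liver (log2 difference 2.04, adjusted p = 0.0106) and 16O liver (2.30, adjusted p = 8.67e-04).

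At the level of single transcripts, 25 of 22429 passed both thresholds (0.111%) and 26 the adjusted p (0.116%), with 11 higher and 14 lower, and 2221 (9.90%) had an unadjusted p under 0.05. For 20 of the 25 the sum over the gene's transcripts did not pass. Stard10, a lipid transfer protein of liver, had the smallest p: its transcript ENSMUST00000164479 was listed at 0 in the 3 controls and at 177, 162 and 234 RPKM in 28Si liver (adjusted p = 1.58e-06). ENSMUST00000032927 of the same gene had 322, 272 and 290 RPKM in the controls and 89.3, 75.6 and 75.8 RPKM in 28Si liver (log2 difference -1.75 ± 0.15 SE, adjusted p = 0.015), a call that held in 1 of 6 fits leaving out a mouse (up to 0.143). The gene's sum was 370 ± 33.2 RPKM in the controls and 384 ± 52.7 RPKM in 28Si liver (SD, n = 3 each), and it did not pass (log2 difference 0.17). A like exchange appeared in Rps14, a protein of the small ribosomal subunit, whose ENSMUST00000137400 had 147, 146 and 115 RPKM in the controls and was listed at 0 in 28Si liver (adjusted p = 1.58e-06). Its gene sums were 268 ± 36.6 and 300 ± 50.1 RPKM. The Stard10 and Rps14 transcripts listed at 0 met the filter only through the other group, so their adjusted p-values are descriptions.

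Uox (urate oxidase) ENSMUST00000199489 had 51.2, 48.9 and 64.3 RPKM in the controls and 2.32, 4.06 and 3.04 RPKM in 28Si liver (log2 difference -3.98, adjusted p = 0.00196), passing in all 6 fits that left out a mouse. The gene's sum was 1101 ± 101 and 864 ± 177 RPKM (log2 difference -0.25, not past the threshold). Apoa2 (a protein of high-density lipoprotein) ENSMUST00000111319 had 383, 404 and 389 RPKM in the controls and 51.2, 44.1 and 79.7 RPKM in 28Si liver (log2 difference -2.66, adjusted p = 0.0076), passing in 2 of 6 fits that left out a mouse (up to 0.0991), within gene sums of 6866 ± 639 and 5916 ± 1180 RPKM. In 28Si mice of the other times that transcript had 56.5 to 175 RPKM, below all 12 controls of those times at 185 to 1311 RPKM. Cebpa (a transcription factor of hepatocytes) ENSMUST00000205391 had 0, 0.255 and 0 RPKM in the controls and 18.8, 28.6 and 19.6 RPKM in 28Si liver (adjusted p = 0.0073, lost without 1 of the 3 controls, up to 0.0675), with gene sums of 139 ± 5.04 and 139 ± 6.10 RPKM. Of the 25 transcripts, 13 were at 0 in every mouse of one group. These 13 and the Cebpa transcript met the filter only through the group with the higher values, so their p-values are descriptions. The same holds for the called transcripts of Gfer, Acly, Acbd4 and Stt3a, which stayed under 0.5 RPKM in every mouse of one group. The split of reads among overlapping transcripts of a gene was made by the authors' software. For Stard10 the other times do not separate by irradiation alone: ENSMUST00000164479 had 0 to 145 RPKM in the 12 controls of the other times, 125 to 216 RPKM in 16O liver at 9 months and 0 to 0.186 RPKM in 56Fe liver at 9 months. The Cebpa transcript had 0 to 29.6 RPKM in those 12 controls and 7.97 to 33.3 RPKM in 16O liver at 9 months. At the other times the Uox transcript had medians of 142 RPKM in controls and 154 in 28Si mice. The Rps14 transcript then had 10.7 to 173 RPKM in controls and 0 to 86.7 RPKM in 28Si mice.

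**Figure D5:**
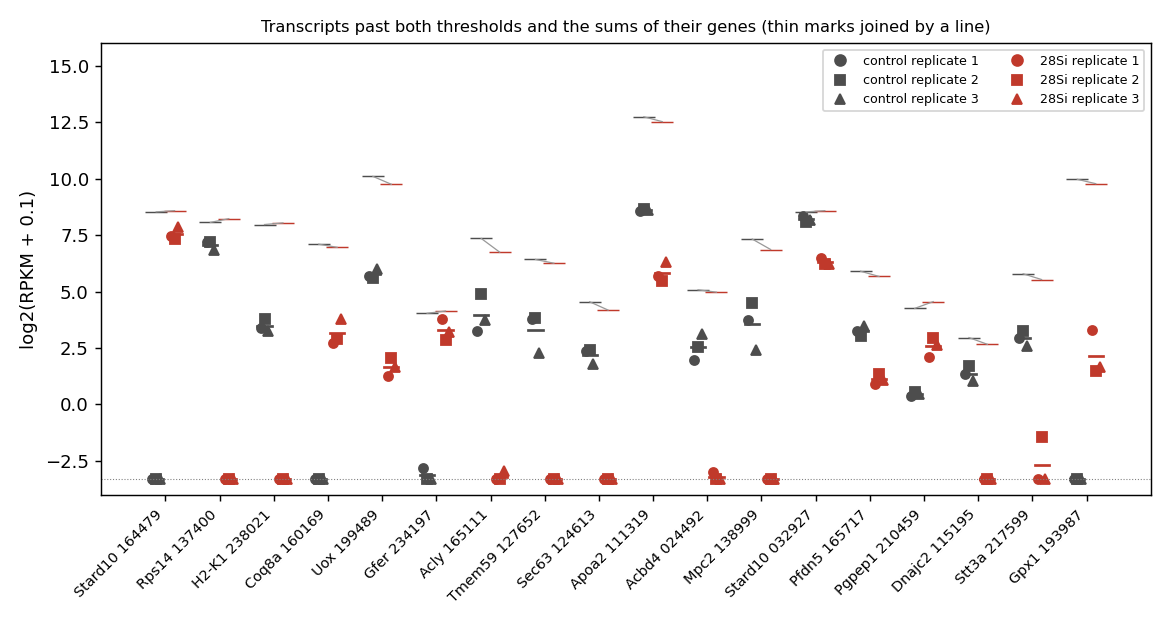
RPKM of the transcripts past both thresholds in genes with more than 2 annotated transcripts, on the scale log2(RPKM + 0.1), in each control (grey) and 28Si (red) mouse at 9 months; labels give the gene and the last 6 digits of the transcript's Ensembl number, thick bars are group means and thin bars joined by a line are the means of the gene's sum. The sums of Stard10 and Rps14 stay level (370 and 384, 268 and 300 RPKM) while Stard10 ENSMUST00000164479 lies at 0 in the controls, Stard10 ENSMUST00000032927 is lower in 28Si liver, and Rps14 ENSMUST00000137400 lies at 0 in 28Si liver.

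28Si liver was also set against the other ions of the same time in fits over the 12 libraries of 9 months. Against 56Fe, 25 of 11754 genes passed both thresholds (0.213%), with 16 higher and 9 lower. At the adjusted p alone 31 passed (0.264%), and 1773 (15.1%) had an unadjusted p under 0.05. Against 16O 24 passed both (0.204%), with 17 higher and 7 lower, 44 the adjusted p (0.374%) and 1508 (12.8%) the unadjusted one. Most of the short RNAs were among them. mt-Tv was listed at 0 in all 56Fe mice. Rpph1 differed by 2.14 from 56Fe (adjusted p = 0.0172) and by 3.00 from 16O (adjusted p = 0.00228), and Gm26035 by 2.495 from 16O (adjusted p = 0.0362) and, not passing, by 1.52 from 56Fe (adjusted p = 0.166). Gm26035 and Rmrp_1 were also above the shared controls in the other ions by their own fits, at a log2 difference of 2.61 and 1.77 in 56Fe (adjusted p = 0.0265 and 0.0264) and of 1.64 and 1.36 in 16O (0.0483 and 0.0189). Hspa8 was higher than in 16O by 1.32 on the log2 scale (adjusted p = 0.00742), and Micos10 fell by 1.06 relative to it (adjusted p = 0.00775). Neither passed against 56Fe (Hspa8 0.66, adjusted p = 0.128, and Micos10 -0.60, adjusted p = 0.111).

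Some protein-coding genes differed between the ions without passing against the controls. Bcl6, a transcriptional repressor that opposes PPAR-alpha and STAT5 targets in liver, averaged 9.90 RPKM in 28Si liver, 2.11 in 16O, 3.84 in 56Fe and 7.83 in the controls, and was higher by 2.38 than in 16O (adjusted p = 0.00228) and by 1.49 than in 56Fe (adjusted p = 0.0249). Bcl2l1, which blocks cell death, averaged 6.06 RPKM in 28Si liver and 13.6 in 56Fe (log2 difference -1.06, adjusted p = 0.0171), with 8.84 in the controls and 8.69 in 16O. Myc, a growth regulator, averaged 0.18 RPKM in 28Si liver and 2.73 in 56Fe (-3.12, adjusted p = 0.0303), with 0.394 in the controls and 0.935 in 16O. For both genes the 56Fe mean was the highest of these groups and the 28Si mean the lowest. Without 28Si replicate 1, 1 gene passed against 56Fe and 9 against 16O.

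The 28Si difference at 9 months was tested against the differences at 4 and 12 months by interaction. Against 4 months, 2 of 11743 genes passed (0.0170%, with 9.09% at an unadjusted p under 0.05): mt-Tg, whose difference was larger at 9 months by 5.15 on the log2 scale (adjusted p = 0.0163), and Snhg12, a long noncoding RNA that hosts nucleolar RNAs (1.37, adjusted p = 0.0312). Snhg12 averaged 6.40 RPKM in the controls and 6.68 in 28Si liver at 9 months, and 10.6 and 4.14 RPKM at 4 months, so that its groups differed mainly at 4 months. mt-Tg averaged 1.25 RPKM in the controls and 36.4 in 28Si liver at 4 months, and 0 and 127 RPKM at 9 months. With the controls of 9 months at 0, the size of its interaction depends on the 0.1 added before taking logs. Against 12 months, 4 of 11806 genes passed (0.0339%, with 11.4% at an unadjusted p under 0.05). Micos10 had a log2 difference lower by 1.01 at 9 months (adjusted p = 0.0158), with 22.1 RPKM in the controls and 21.7 in 28Si liver at 12 months. Cdh1 had one higher by 3.30 (adjusted p = 0.0158), with 4.997 and 1.48 RPKM at 12 months, Gm23287 by 4.28 (adjusted p = 0.0268) and Rmrp_1 by 3.84 (adjusted p = 0.0304). Gm23287 was listed at 0 in the controls of both times and in 28Si liver at 12 months. It met the filter only through the 28Si mice of 9 months, so its value is a description. Against 4 months no gene passed in limma without control replicate 1 or 2, and 10 did without 28Si replicate 3. Against 12 months none passed without control replicate 2 or 3 or without 28Si replicate 1 or 2, and 6 did without 28Si replicate 3.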

How the data were processed

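Liver RNA was sequenced for 3 mice per group. The authors trimmed reads, mapped them in CLC Genomics Workbench to GRCm38 and deposited RPKM per transcript, which are normalized for transcript length and mapped reads, together with group means that were not used. Groups came from the sample labels. Gene values were sums over transcripts of a name. Libraries of a fit were scaled by a trimmed mean of log ratios (30% and 5% trimmed). Genes or transcripts were kept where 3 libraries or more reached 0.5 RPKM, and log2(RPKM + 0.1) was tested two-sided in limma 3.58.1 (R 4.3.3), with moderated variances that follow the mean level and p-values adjusted by Benjamini-Hochberg. Interactions and ion contrasts used all 12 libraries concerned. Library depth was worked out from low values of single-transcript genes, of which 99.8% to 99.9% came to whole reads (tolerance 0.02). RPM and reads per gene are estimates from this depth, and counting error adds most near the filter.

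Annotation came from GENCODE M21 (123380 of 123811 transcripts matched), and copies were sought with blastn 2.17.0+ at 90% identity over 90% of the length. Genes named were those past both thresholds, without overlap and with a mean of at least 1 RPKM, up to 12 in each direction, and list members past the adjusted p; others are named as chosen after their values were seen or to illustrate a list. The members, lists and tests were chosen with earlier results of these data known. The p-values measure the spread between mice. Alternatives changed the scaling, filter, pseudocount, replicate block, libraries in the fit and tool, and left out each mouse; protein-coding genes alone were added after seeing the data. The fit was tested on simulated data.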

Additional observations from a re-analysis of the deposited data

Results flagged for a closer look

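The results in this part differ between 2 groups by a test of the difference itself, in limma fits with Benjamini-Hochberg adjustment over all genes; values are log2 differences. The ion contrasts and the 28Si comparison use the same 28Si mice, so they are not separate evidence.

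Between 28Si and 56Fe liver at 9 months, the mitochondrial transfer RNAs mt-Tg (8.54, adjusted p = 0.0274), mt-Tm (9.98, adjusted p = 0.0109) and mt-Tv (7.02, adjusted p = 0.00215) were higher in 28Si liver. The same held for Rmrp_1 (1.98, adjusted p = 0.0111), Gm25541 (3.02, adjusted p = 0.0111), Rny1 (3.35, adjusted p = 0.0249), Rpph1 (2.14, adjusted p = 0.0172) and Gm47299 (4.197, adjusted p = 0.00524). For genes listed at 0 in a group the value depends on the 0.1 RPKM added before taking logs. The mitochondrial transfer RNAs mt-Tg, mt-Tm, mt-Tv and mt-Th, and Gm23287 and Gm47299, are listed at 0 in all controls of 9 months, so their place in the fit rests on the irradiated mice and their values here are descriptions.

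Between 28Si and 16O liver, mt-Tg (7.16, adjusted p = 0.0488), mt-Tm (6.64, adjusted p = 0.0461), mt-Tv (5.94, adjusted p = 0.00274) and mt-Th (4.95, adjusted p = 0.0236) were higher in 28Si liver. So were Gm26035 (2.495, adjusted p = 0.0362), Rmrp_1 (2.38, adjusted p = 0.00253), Gm25541 (2.59, adjusted p = 0.0175), Rpph1 (3.00, adjusted p = 0.00228), Gm23287 (4.31, adjusted p = 0.0267), Gm47299 (4.197, adjusted p = 0.00262) and Hspa8 (1.32, adjusted p = 0.00742). Micos10 was lower (-1.06, adjusted p = 0.00775).

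Between times, the 28Si minus control difference of mt-Tg was larger at 9 than at 4 months (5.15, adjusted p = 0.0163). Against 12 months the differences of Rmrp_1 (3.84, adjusted p = 0.0304) and Gm23287 (4.28, adjusted p = 0.0268) were larger at 9 months and that of Micos10 was lower (-1.01, adjusted p = 0.0158).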

How the results depend on the processing

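The 13 genes past both thresholds became 1 to 9 when 1 mouse was left out, with 1 without 28Si replicate 1, 3 without 28Si replicate 3 and 9 without 28Si replicate 2. The number was 26 with all 12 libraries of 9 months in the fit and 49 with all 60 libraries, 7 in limma without a trend, 0 in limma-voom and 0 with protein-coding genes only. It was 15 with RLE scaling and 16 without scaling, and all 13 genes were among both. A pseudocount of 1 gave 9. Without scaling the median of all genes was -0.10, against 0.01, so directions are given relative to that shift. The cause of these changes was not tested.

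Leaving out 1 mouse gave 8 to 19 transcripts in place of 25, 1 to 34 genes in place of 25 for 28Si against 56Fe, and 9 to 31 in place of 24 for 28Si against 16O, which was 49 without scaling. It gave 0 to 10 genes in place of 2 against 4 months (1 without scaling and 1 with no filter) and 0 to 6 in place of 4 against 12 months (2 with a filter of 1 RPKM). At 0 genes, 721 to 1533 genes still had an unadjusted p under 0.05 in limma.

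Same-numbered mice did not deviate together (correlations 0.13, -0.13 and 0.0028), and no label pairs the mice by number. Such correlations cannot exclude a link between mice that the labels do not give. With the replicate number as a block the counts were 11 genes (8 of them among the 13), 12 transcripts, 30 genes against 56Fe, 37 against 16O, 2 against 4 months and 0 against 12 months. Of the 14 genes past the adjusted p, all kept it with RLE scaling or a pseudocount of 0.01, 1 lost it without scaling, 3 with a pseudocount of 1, 6 with the block, 7 in limma without a trend and all 9 that limma-voom tested. None of the 14 changed direction in these or the other alternatives run. The short RNAs with 1 to 12 reads per library are limited by depth.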
